A study of Mus musculus with 15 samples.

Results

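The genes described here are 34 genes of the p53 pathway. They were listed by name, with earlier results of these data known. Most are genes that p53 switches on. The set also holds Trp53, the gene for p53 itself, its regulator Mdm4 and its relative Trp73. All 34 were found among the 46517 genes of the deposited count files, and all 34 were among the 18132 genes with enough reads to be tested. They were sorted by role into feedback and family (5 genes), cell-cycle arrest (6), apoptosis (12), DNA repair (4) and stress and metabolism (7).

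The kidneys came from mice of strain C57BL/6. Control mice at postnatal day 0 carried floxed alleles of Dnmt1 (Dnmt1 f/f) and no Cre in their label. Knockout mice (KO) of the same age carried the same floxed alleles together with Six2Cre, a Cre recombinase driven by Six2, a gene of nephron progenitors, which deletes the floxed alleles in that lineage. Messenger RNA was sequenced in 3 controls and 3 KO samples. Reduced representation bisulfite sequencing (RRBS), which reads cytosine methylation in CpG-rich restriction fragments, covered 3 controls, 3 KO samples and 3 wild-type adults of 6 weeks. The labels do not say whether samples are separate animals or pools, so p-values measure only the spread between these samples, which may be technical. Nor do they say that RNA and RRBS samples with the same number share an animal.

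p53 is a transcription factor that Mdm2 and Mdm4 hold at a low level. DNA damage and other stresses free it, and it then switches on genes that stop the cell cycle, repair DNA or start apoptosis, as well as Mdm2, which closes a negative feedback loop. In the developing kidney, nephron progenitors are known to depend on Mdm2 to hold p53 in check. DNMT1 copies methylation onto new DNA strands after replication, and its loss is known to activate p53 in cultured fibroblasts. The comparison of KO with control asks which transcripts of the pathway differ in newborn kidney under this deletion.

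Gene counts totalled 26773937 to 34102567 per RNA library, and RRBS libraries held 18424875 to 88765177 methylation calls. Values of single libraries are given in the order of replicates 1 to 3. Dnmt1, the targeted gene, stood at 180, 156 and 188 CPM (gene counts scaled to the library total, with TMM adjustment) in the controls and at 110, 111 and 93.7 CPM in the KO samples, a log2 fold change of -0.74 (edgeR adjusted p 0.0058, SE 0.12). The labels name Six2-positive cells as the source, whereas the extraction protocol names whole kidneys for the DNA. In every RNA library, all 5 endothelial markers and the 3 tested red cell markers had counts, although neither cell type belongs to the Six2 lineage. All 7 tubule markers were lower in KO, with summed levels of 2654 to 4542 CPM in controls and 406 to 480.2 CPM in KO, and so were all 5 podocyte markers (722 to 995 against 264 to 342 CPM) and 4 of 5 endothelial markers (552 to 797 against 367 to 445 CPM). The 5 germ-cell and 2-cell markers were all higher in KO, at 91.3 to 176 CPM against 0.335 to 0.815 CPM, with 4 of them at 0 in at least 1 library. Stroma (3 of 6 higher), ureteric (2 of 7 higher), nephron progenitor (2 of 6 higher, 1 lower) and leukocyte markers (1 of 5 tested higher) also held changed genes. Across all genes tested, edgeR called 6.36% higher and 8.23% lower. Of 5 tubule injury markers, Krt20 was higher in KO, at 17.7, 8.49 and 5.78 CPM against 2.39 to 3.17 CPM in controls (log2 fold change 1.92, edgeR adjusted p 0.016). KO 1 stood well above the other KO samples for Krt20. The other 4 did not pass. Among them, Havcr1 had every KO sample below every control, at 0.249 to 0.525 CPM against 0.640 to 1.36 CPM (log2 fold change -1.39, edgeR adjusted p 0.071). Lcn2, Clu and Spp1 had log2 fold changes of 0.09, 0.01 and -0.49. The summed level of the list, in which abundant genes weigh most, was 461 to 644 CPM in controls and 433 to 467 CPM in KO. The red cell markers summed to 202 to 474 CPM in controls and 180 to 291 CPM in KO. Control 3 stood apart, with the proximal tubule gene Slc34a1 at 1532 CPM against 430 and 407 CPM in the other controls. These shifts ran alongside every expression result given here. Their part in those results was not tested, and in such bulk samples fewer cells of a type and less RNA per cell cannot be told apart.

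Of the 34 genes, 6 were higher and 2 were lower in KO at an adjusted p under 0.05, and 26 did not pass. Over all genes tested, 6.36% were higher and 8.23% lower in the same test. The genes that rose were Eda2r, Pmaip1, Btg2, Apaf1, Trp53inp1 and Ccng1, and those that fell were Gadd45a and Dcxr. The median log2 fold change of the 34 genes was 0.16 (22 of them above 0), against -0.00074 over all 18132 genes tested (9046 above 0). Every KO sample lay above every control for 11 of the 34, against 16.5% of all genes, and below every control for 4, against 17.8%. Of the 6 increases, 4 belonged to the apoptosis group, while Trp53, Mdm2 and Cdkn1a did not pass. The call count depended on the samples used: without control 3 it was 11 higher and 3 lower (background 13.6% and 13.8%), without KO 2 it was 2 higher and 1 lower (background 3.97% and 4.16%), and without KO 3 the same (background 3.93% and 4.23%). DESeq2 called 8 higher and 2 lower (background 8.9% and 10.5%), and limma voom, which weights libraries by their quality, called 11 and 3 (background 13.5% and 14.3%). Pmaip1, Eda2r and Dcxr passed in all 14 alternative fits.

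**Figure D1:**
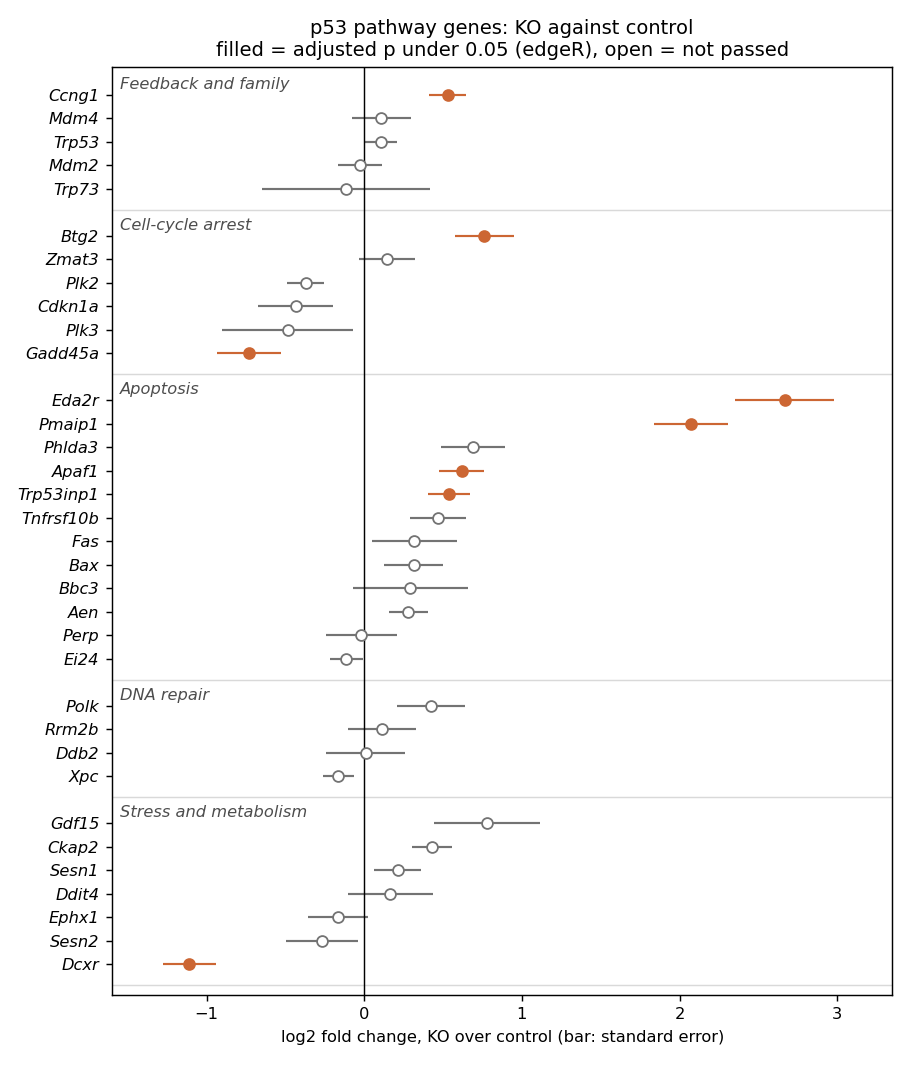
Log2 fold change of KO over control for each of the 34 genes, grouped by role, with bars for the standard error and filled points for an adjusted p under 0.05 in edgeR. Eda2r (2.67) and Pmaip1 (2.07) lie far to the right, and Dcxr (-1.11) and Gadd45a (-0.73) to the left.

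Promoter sequence was available for 26 of the 34 genes, from a RefSeq table of build GRCm38.p6 that gives 250 bases before and 50 bases after each start site. Pmaip1, Trp53inp1, Zmat3, Tnfrsf10b, Perp, Ddb2, Xpc and Rrm2b were not matched there. A match to the p53 half-site consensus, a palindrome of 10 bases that was therefore read on both strands at once, was present in 11 of the 26: Trp53, Mdm2, Ccng1, Cdkn1a, Gadd45a, Bax, Aen, Ei24, Polk, Sesn1 and Ckap2. Among all 27025 genes of that table the share with a match was 9.55%. Of the 11, Ccng1 was higher in KO, Gadd45a was lower and 9 did not pass. Of the 15 searched genes without a match, 3 were higher and 1 was lower. An adjoining pair of half-sites with at most 1 mismatch, a search that overlaps the first, was present in Ccng1 and Cdkn1a and in 22 genes of the table (0.0814%). A pair of full half-sites at most 13 bases apart was present in Cdkn1a and in 20 genes of the table (0.0740%). The sequences of Ccng1 and Gadd45a are shown because they are the genes past the threshold with a match, and that of Cdkn1a, chosen after its values were seen, because it holds the densest match and its transcript did not pass. Each line gives the 250 bases before the start, 5′ to 3′ on the gene's own strand, with half-site matches in capitals.
Ccng1: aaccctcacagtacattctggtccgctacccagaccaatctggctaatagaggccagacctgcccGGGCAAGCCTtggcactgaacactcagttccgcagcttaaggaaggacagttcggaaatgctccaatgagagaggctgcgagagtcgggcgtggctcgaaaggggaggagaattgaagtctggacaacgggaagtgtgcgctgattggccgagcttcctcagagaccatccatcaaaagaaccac
Gadd45a: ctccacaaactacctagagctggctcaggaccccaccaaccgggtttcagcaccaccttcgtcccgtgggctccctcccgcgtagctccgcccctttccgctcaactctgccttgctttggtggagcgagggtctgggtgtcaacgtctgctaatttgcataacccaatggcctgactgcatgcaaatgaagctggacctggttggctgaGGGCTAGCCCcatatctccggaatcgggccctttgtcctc
Cdkn1a: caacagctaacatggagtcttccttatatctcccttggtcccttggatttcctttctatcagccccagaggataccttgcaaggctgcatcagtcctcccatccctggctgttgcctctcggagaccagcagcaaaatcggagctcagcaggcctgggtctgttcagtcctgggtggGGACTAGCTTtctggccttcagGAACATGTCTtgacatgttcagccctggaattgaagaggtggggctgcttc

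The Ccng1 stretch lies at chr11:40755287-40755536 on the minus strand, the Gadd45a stretch at chr6:67037408-67037657 on the minus strand and the Cdkn1a stretch at chr17:29090729-29090978 on the plus strand. In Ccng1 the adjoining pair reads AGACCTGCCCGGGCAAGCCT (chr11:40755462-40755481), of which the capitals mark the part without a mismatch. In Cdkn1a it reads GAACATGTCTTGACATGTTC (chr17:29090928-29090947), downstream of the other match, GGACTAGCTT (chr17:29090906-29090915). The single match of Gadd45a, GGGCTAGCCC, lies at chr6:67037438-67037447. These matches describe letters only and do not show that p53 binds there.

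Feedback and family genes showed 1 change in 5. Trp53 (ENSMUSG00000059552.12, chromosome 11, 69580348 to 69591873) stood at 138, 121 and 135 CPM in the controls and at 142, 144 and 138 CPM in the KO samples. Its log2 fold change was 0.10 (edgeR adjusted p 0.59, SE 0.10). The groups overlapped. Mdm2, the ubiquitin ligase that marks p53 for degradation and is itself a p53 target, stood at 49.0, 57.3 and 54.9 CPM against 61.5, 51.8 and 45.0 CPM. KO 1 was the highest and KO 3 the lowest of all 6 libraries for Mdm2, and the log2 fold change was -0.03 (edgeR adjusted p 0.93, SE 0.14), with the sign turned (0.011) when scaled by library size alone. Mdm4, which binds p53 and blocks its activity, stood at 103, 103 and 165 CPM in controls and at 130 to 136 CPM in KO (log2 fold change 0.11, SE 0.19). Controls 1 and 2 lay below the KO samples and control 3 above them. Mdm4 passed as higher when control 3 was left out, and also with voom on all libraries.

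Ccng1 (ENSMUSG00000020326.7, chromosome 11, 40748552 to 40755309) encodes cyclin G1, which brings a phosphatase to Mdm2 and so acts on p53 in turn. It stood at 65.1, 67.7 and 68.9 CPM in controls and at 84.2, 103 and 103 CPM in KO. All KO samples lay above all controls, and the controls differed little among themselves. The log2 fold change was 0.53 (a 1.44-fold rise, edgeR adjusted p 0.019, SE 0.12). This call was lost without control 1, KO 2 or KO 3. Trp73, the gene for the p53 relative p73, had only 11 to 48 reads per library, with 0.335 to 1.30 CPM in controls and 0.426 to 1.03 CPM in KO. The log2 fold change of Trp73, -0.12 (edgeR adjusted p 0.92, SE 0.53), was less precise than that of any other gene in the group.

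Among the 6 arrest genes, Btg2 rose, Gadd45a fell and the others did not pass. The median log2 fold change of the group was -0.40. Cdkn1a (ENSMUSG00000023067.12, chromosome 17, 29090979 to 29100722) encodes p21, the inhibitor of cyclin-dependent kinases through which p53 stops the cycle. It stood at 120, 66.9 and 69.3 CPM in controls and at 51.1, 65.7 and 72.5 CPM in KO. Control 1 was the highest and KO 1 the lowest, while the other 4 libraries lay between 65.7 and 72.5 CPM. The log2 fold change was -0.43 (edgeR adjusted p 0.29, SE 0.24). The stretch shown above, which lies before only 1 of its 2 annotated start sites (29090979), holds an adjoining pair of half-sites, as does that of Ccng1.

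Btg2 (ENSMUSG00000020423.6, chromosome 1, 134074865 to 134079155) encodes an antiproliferative protein that slows entry into S phase. It stood at 37.2, 22.3 and 27.6 CPM in controls and at 48.9, 52.6 and 46.1 CPM in KO. The groups did not overlap, and the log2 fold change was 0.76 (a 1.70-fold rise, edgeR adjusted p 0.029, SE 0.19). The call was lost without control 2 or without any 1 of the KO samples.

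Gadd45a (ENSMUSG00000036390.7, chromosome 6, 67035096 to 67037407), a stress-induced gene whose protein helps to hold cells before mitosis, moved the other way. Its levels were 32.8, 29.5 and 20.7 CPM in controls and 14.8, 16 and 19.3 CPM in KO. Control 3, the lowest control, and KO 3, the highest KO sample, lay close together. The log2 fold change was -0.73 (1.66-fold lower in KO, edgeR adjusted p 0.046, SE 0.20), and the call was lost when any 1 library except control 3 was left out and when at least 10 reads were required in every sample (edgeR adjusted p 0.054). The annotation places 809 bases of the long noncoding gene E230016M11Rik over Gadd45a. Whether reads were counted by strand is not given in the sources used here, so reads of the shared stretch cannot be told apart. E230016M11Rik itself stood at 4.48 to 6.60 CPM in controls and at 3.57 to 5.64 CPM in KO.

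Plk2, Plk3 and Zmat3 did not pass. Plk2, a kinase of the centrosome and of the stress response, stood at 79.5, 75.5 and 62.4 CPM against 54.7, 55.2 and 58.0 CPM, with every KO sample below every control. Its log2 fold change of -0.37 (SE 0.12) had an edgeR adjusted p of 0.077, and it passed as lower without control 3 and with voom on all libraries. Plk3, a related kinase, ranged from 8.21 to 26.6 CPM in controls and from 7.82 to 15.1 CPM in KO (log2 fold change -0.49, SE 0.41). Zmat3, which encodes an RNA-binding protein, stood at 22.6 to 34.2 CPM in controls and at 29.3 to 36.5 CPM in KO (log2 fold change 0.14, SE 0.18). The groups overlapped for both.

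The apoptosis group held 4 of the 6 increases and no decrease past the threshold in edgeR, DESeq2 or voom. Of its 12 genes, 10 had a log2 fold change above 0, 6 were higher and 0 lower at an unadjusted p under 0.05 (13% and 15% of all genes), and for 7 every KO sample lay above every control (16.5% of all genes). The median was 0.39. Eda2r (ENSMUSG00000034457.9, chromosome X, 97333837 to 97377234) encodes a receptor of the TNF receptor family that binds ectodysplasin A2. It stood at 0.975, 1.52 and 0.734 CPM in controls (32, 47 and 27 reads) and at 6.2, 7.31 and 6.99 CPM in KO (199, 223 and 184 reads). The groups lay far apart, with means of 1.08 ± 0.403 and 6.83 ± 0.572 CPM (SD, n = 3 each). That is a log2 fold change of 2.67 (a 6.36-fold rise, edgeR adjusted p 0.0012, SE 0.31). Because the gene is X-linked, the sex-linked transcripts are given beside it. Xist, made by the inactive X, was present in all 6 libraries, at 1018 to 2017 CPM in controls and 1832 to 2786 CPM in KO, and the Y-linked Ddx3y had 35 reads in control 3 and at most 1 in the others.

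Pmaip1 (ENSMUSG00000024521.7, chromosome 18, 66458604 to 66465558) encodes Noxa, a BH3-only protein that neutralises the survival protein MCL1. It stood at 6.79, 4.53 and 3.86 CPM in controls and at 22.4, 21.6 and 19.8 CPM in KO. The KO samples lay far above all controls and differed little among themselves, with means of 5.06 ± 1.54 and 21.3 ± 1.32 CPM (SD, n = 3 each). This gave a log2 fold change of 2.07 (a 4.21-fold rise, edgeR adjusted p 0.0010, SE 0.23). Bbc3, the gene for Puma and the other BH3-only protein of the set, stood at 23.8, 23.4 and 7.88 CPM against 22.0, 20.7 and 24.7 CPM. Apart from control 3, the libraries of both groups had like values for Bbc3, and its log2 fold change was 0.29 (edgeR adjusted p 0.67, SE 0.37), turning to -0.07 without control 3. Both genes are classical p53 targets of the same class, but the difference between their changes was not tested.

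**Figure D2:**
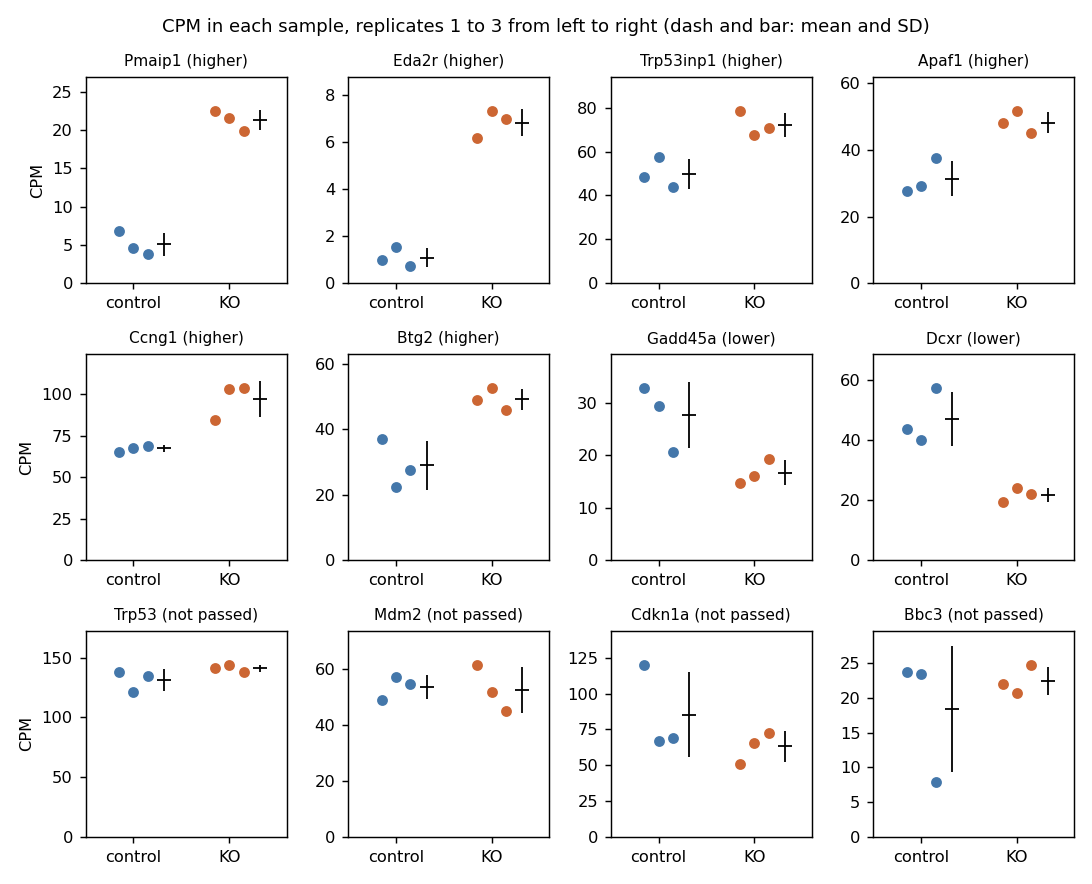
CPM in each of the 6 RNA libraries for 12 genes, replicates 1 to 3 from left to right in each group, with the mean and SD beside them. The 8 genes past the threshold show no overlap between groups, whereas Trp53, Mdm2, Cdkn1a and Bbc3 overlap.

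Apaf1 and Trp53inp1 rose by less. Apaf1 (ENSMUSG00000019979.11, chromosome 10, 90989311 to 91082743), the scaffold of the apoptosome that activates caspase-9, stood at 27.7, 29.1 and 37.5 CPM in controls and at 48.0, 51.6 and 45.1 CPM in KO. Its log2 fold change was 0.62 (a 1.53-fold rise, edgeR adjusted p 0.025, SE 0.14). The groups did not overlap, but the call was lost when any 1 library except control 3 was left out and when libraries were scaled by size alone (edgeR adjusted p 0.069). Trp53inp1 (ENSMUSG00000028211.10, chromosome 4, 11156441 to 11174379), whose protein promotes p53-dependent cell death and autophagy, stood at 48.2, 57.3 and 43.7 CPM in controls and at 78.3, 67.7 and 70.5 CPM in KO. Its log2 fold change was 0.54 (a 1.45-fold rise, edgeR adjusted p 0.028, SE 0.13). All KO samples lay above all controls here too, and the call was lost without control 1 or any 1 of the KO samples.

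The other 8 apoptosis genes did not pass. Phlda3, which encodes an inhibitor of the survival kinase AKT, stood at 35.9, 41.0 and 24.4 CPM in controls and at 46.3, 54.8 and 62.2 CPM in KO. Its log2 fold change was 0.69 (edgeR adjusted p 0.057, SE 0.20), and it passed in 6 of the 14 alternative fits, among them DESeq2 and voom. Tnfrsf10b, the mouse TRAIL death receptor (8.28 to 9.90 CPM against 10.7 to 13.8 CPM), and Aen, an apoptosis-enhancing nuclease (25.0 to 25.6 CPM against 28.4 to 34.1 CPM), also had every KO sample above every control. Tnfrsf10b had a log2 fold change of 0.47 (edgeR adjusted p 0.13) and Aen one of 0.28 (edgeR adjusted p 0.19). Bax, the pore-forming protein of the outer mitochondrial membrane, stood at 61.0, 79.2 and 46.0 CPM against 70.5, 78.6 and 82.4 CPM, with overlapping groups and a log2 fold change of 0.31. Fas, a death receptor, ranged from 3.26 to 5.37 CPM and from 4.67 to 6.35 CPM (log2 fold change 0.32, SE 0.27). Perp, which encodes a membrane protein of cell contacts, had 34.4 CPM in KO 1 and 19.1 and 22.0 CPM in the other KO samples, against 22.7 to 27.0 CPM in controls, and the sign of its log2 fold change turned from -0.02 to 0.02 with library size alone. Ei24, a protein of the endoplasmic reticulum, lay at 113 to 132 CPM in controls and at 112 to 115 CPM in KO (log2 fold change -0.11, SE 0.10).

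None of the 4 DNA repair genes passed in edgeR, DESeq2 or at an unadjusted p under 0.05, and their median log2 fold change was 0.06. Ddb2 and Xpc, which recognise damaged bases for nucleotide excision repair, had log2 fold changes of 0.01 (SE 0.25) and -0.16 (SE 0.10). Xpc was the narrower of the pair, at 52.4 to 53.5 CPM in controls and 45.0 to 48.6 CPM in KO, with every KO sample below every control. Ddb2 stood at 8.99, 11.4 and 17.7 CPM in controls and at 11.8 to 13.4 CPM in KO, and it shares 2554 annotated bases with Acp2. Polk, a polymerase that copies past lesions, stood at 9.05, 10.3 and 15 CPM against 14.1, 15.6 and 16.5 CPM, a log2 fold change of 0.42 (edgeR adjusted p 0.25, SE 0.22). Rrm2b, the p53-induced subunit of ribonucleotide reductase, stood at 10.9 to 18.7 CPM against 14.5 to 16.1 CPM (log2 fold change 0.11, SE 0.22). In Ddb2, Polk and Rrm2b alike, control 3 was the highest control, and Polk passed as higher without it. With voom, Polk passed as higher and was the only repair gene to pass.

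Of the 7 stress and metabolism genes, Dcxr fell and the others did not pass. Dcxr (ENSMUSG00000039450.10, chromosome 11, 120724546 to 120727284) encodes dicarbonyl and L-xylulose reductase, an enzyme abundant in kidney tubules. It stood at 43.8, 40.2 and 57.4 CPM in controls and at 19.4, 24.1 and 21.9 CPM in KO, with means of 47.1 ± 9.06 and 21.8 ± 2.34 CPM (SD, n = 3 each) and a log2 fold change of -1.11 (2.16-fold lower in KO, edgeR adjusted p 0.0035, SE 0.17). Control 3, which had the highest Dcxr level, also had the highest summed level of the tubule markers, all 7 of which were lower in KO. The part of the tubule shift in the Dcxr result was not tested.

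Gdf15, a stress-induced secreted factor, stood at 1.49, 1.17 and 2.61 CPM in controls and at 2.90, 2.98 and 3.19 CPM in KO. All KO samples lay above all controls, and the log2 fold change was 0.78 (edgeR adjusted p 0.18, SE 0.34). Ckap2, a protein of the mitotic spindle, stood at 25.6, 26.3 and 29.9 CPM against 33.5, 39.0 and 37.4 CPM, again without overlap, and just missed the threshold (log2 fold change 0.43, edgeR adjusted p 0.059, SE 0.13). Gdf15 and Ckap2 both passed as higher without control 3 and with voom, and Ckap2 also with DESeq2. Sesn1 and Sesn2, which restrain the growth kinase mTORC1, had log2 fold changes of 0.21 (SE 0.15) and -0.27 (SE 0.23), and Ddit4, another inhibitor of that kinase, had one of 0.17 (SE 0.27). Ephx1, an epoxide hydrolase that detoxifies reactive compounds, had one of -0.16 (SE 0.19). The groups overlapped for these 4 genes.

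Relative to the control mean of each gene, the median deviation of the 34 genes was 0.207, 0.165 and 0.187 on the log2(CPM + 0.1) scale in the KO samples. In the controls it was 0.010, -0.057 and -0.028. The KO samples therefore lay close together in this measure, which is a description without a test. Summed over all 34 genes, expression was 1396, 1288 and 1314 CPM in controls and 1395, 1460 and 1466 CPM in KO, so control 1 and KO 1 were alike in the sum, in which abundant genes weigh most.

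**Figure D3:**
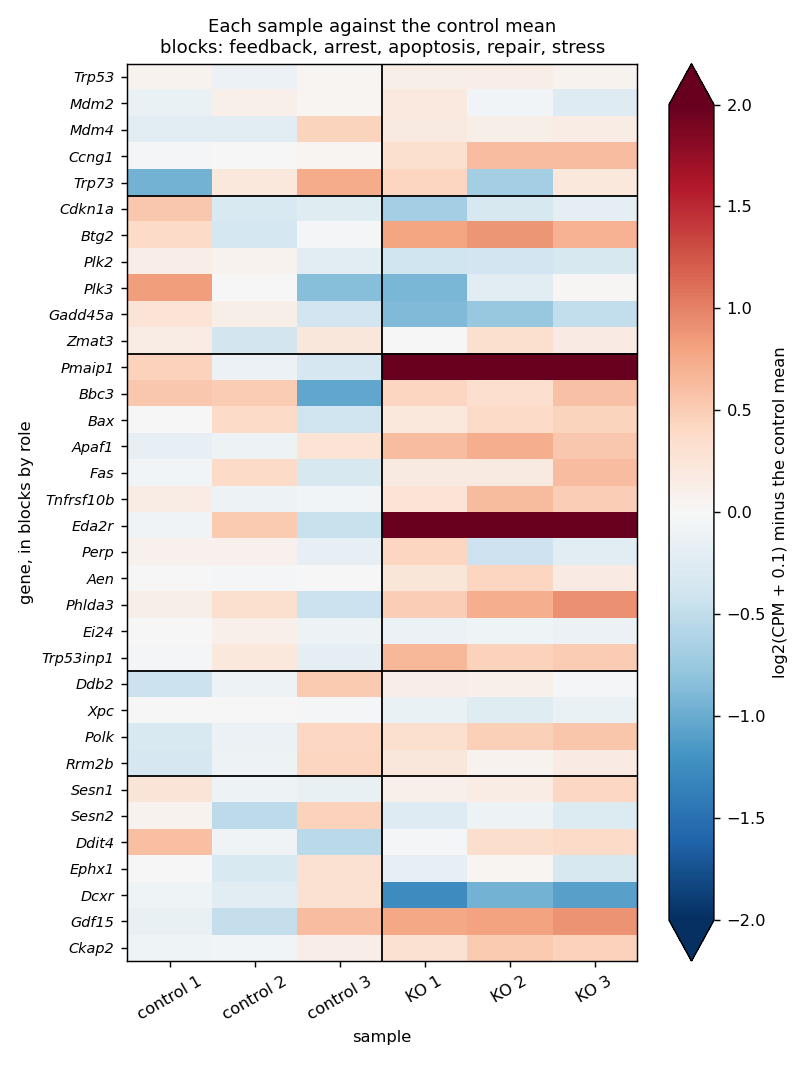
Log2(CPM + 0.1) of each gene in each library minus the mean of the controls, in blocks by role and with the colour scale limited to -2 to 2. Pmaip1 and Eda2r are dark in all 3 KO columns, and controls 1 and 3 differ from each other in Plk3, Bbc3 and Trp73.

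Lists of genes around the pathway were read against the same 6.36% higher and 8.23% lower over all genes in edgeR. Of 17 upstream regulators of p53, 1 was higher and 0 were lower in edgeR, with 4 higher and 0 lower at an unadjusted p under 0.05 (13% and 15% of all genes). DESeq2 called 3 higher and 0 lower (background 8.9% and 10.5%), and voom 3 higher and 1 lower (background 13.5% and 14.3%). The gene called by edgeR was Cdkn2a (ENSMUSG00000044303.6, chromosome 4, 89274473 to 89294619), which encodes the Mdm2 inhibitor ARF as well as the kinase inhibitor p16. It stood at 0.122, 0.227 and 0.0815 CPM in controls, from 3 to 7 reads, and at 1.53, 2.07 and 2.17 CPM in KO, from 49 to 63 reads. Its log2 fold change was 3.73 (a 13.3-fold rise, edgeR adjusted p 0.0011, SE 0.43), and gene counts do not tell its transcripts for ARF and p16 apart. The call held in each fit that left out 1 library, and with at least 10 reads required in every sample Cdkn2a was not tested. Wrap53, which neighbours Trp53 on chromosome 11, did not pass (log2 fold change -0.12, SE 0.14).

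Of 24 further p53 targets outside the set, 2 were higher and 1 was lower. Sfn, which encodes the cell-cycle inhibitor 14-3-3 sigma, stood at 7.62, 7.48 and 12.2 CPM in controls and at 28.9, 17.0 and 14.9 CPM in KO (log2 fold change 1.16, edgeR adjusted p 0.039, SE 0.30). Psrc1, a spindle protein, stood at 25.5, 27.9 and 20 CPM against 32.0, 40.6 and 40.2 CPM (0.62, edgeR adjusted p 0.042, SE 0.17). Cyfip2, a regulator of the actin cytoskeleton, moved the other way, from 99.0, 99.0 and 95.8 CPM to 44.2, 53.5 and 38.1 CPM (-1.11, edgeR adjusted p 0.0015, SE 0.14). The Sfn call was lost without control 1, control 2, KO 1 or KO 2 and when libraries were scaled by size alone (edgeR adjusted p 0.066), the Psrc1 call without control 1 or any 1 of the KO samples, and the Cyfip2 call in no fit that left out 1 library. The median of this list was 0.07, with 15 of 24 genes above 0.

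Of 19 genes of the BCL2 family and caspases, Hrk alone passed. Hrk, a BH3-only gene best known in neurons, stood at 0.122, 0.485 and 0.217 CPM in controls and at 0.841, 0.885 and 1.44 CPM in KO, from 4 to 15 and from 27 to 38 reads (log2 fold change 1.94, edgeR adjusted p 0.040, SE 0.51). That call was lost without control 1 or any 1 of the KO samples. The median of that list was -0.06. None of 20 cell-cycle genes that p53 lowers through p21 and the DREAM repressor complex passed in edgeR. At an unadjusted p under 0.05, 3 were higher and 0 lower (13% and 15% of all genes), DESeq2 called 1 higher (background 8.9%), and voom called 2 higher and 1 lower (background 13.5% and 14.3%). Their median log2 fold change was 0.08, and 16 of the 20 were above 0.

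**Figure D4:**
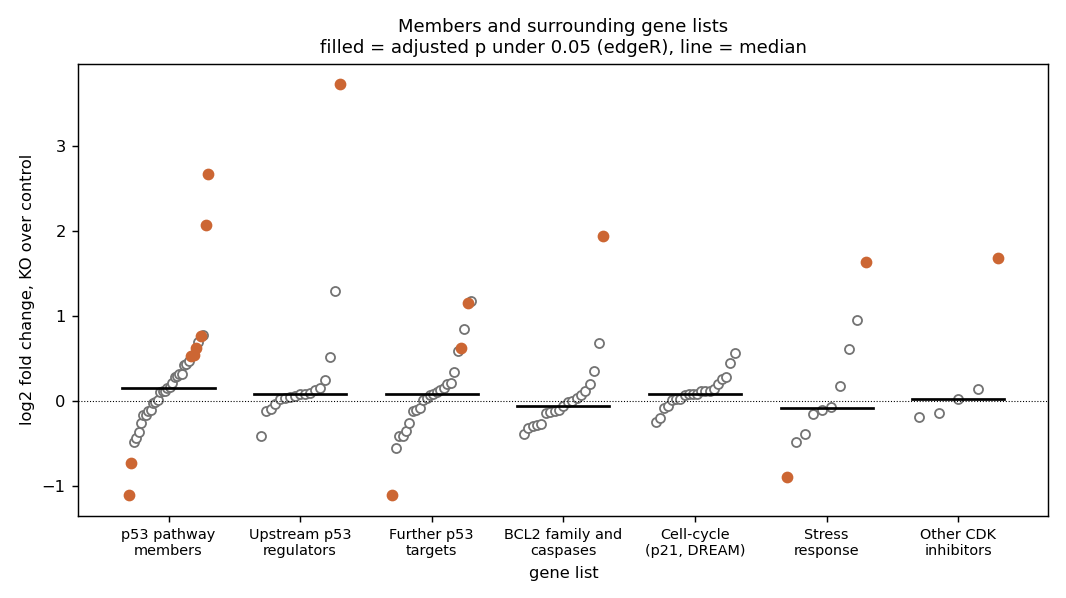
Log2 fold change of KO over control for every gene of the 34-gene set and of 6 surrounding lists, filled where the edgeR adjusted p was under 0.05, with a line at each median. Medians run from -0.09 to 0.16, and the highest points are Cdkn2a, Eda2r and Pmaip1.

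Methylation was read within 1000 bases of the RefSeq start sites, as the share of methylated calls summed per sample. All 26 genes with a start site had a covered window, meaning at least 3 positions and 20 calls in each P0 sample. Of these, 19 (73.1%) lay under 5% in controls, against 67.9% of 14482 windows over all genes. Averaged over the 26 genes, methylation was 6.07%, 6.96% and 6.71% in the controls, 5.95%, 5.11% and 4.51% in the KO samples and 3.11% to 3.58% in adults. The mean difference between KO and control was -1.39 points from a control mean of 6.58%. Over all windows it was -3.73 points from a control mean of 14.8%. The median differences were closer, at -0.19 points for the 26 genes and -0.27 points over all windows. For the 26 genes the mean difference was also read in a narrower window. Within 500 bases of the start it was -0.49 points.

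Of the 26 windows, 1 passed as lower in KO and 0 as higher in the edgeR test of methylated and unmethylated calls, against 13.2% and 0.104% of all windows tested. The window was that of Trp73, at 23.5%, 25.9% and 28.4% in controls and 15.9%, 17.5% and 26.1% in KO, a difference of -6.15 points (edgeR adjusted p 0.024), on 495 to 2313 calls per sample. KO 3 lay inside the control range, and the call was lost without control 2, KO 1 or KO 2. Trp73 expression, given above, did not pass. Gdf15 had the highest control level, at 31.7%, 54.5% and 40.2% against 34.8%, 26.7% and 25.0% in KO, a difference of -13.3 points on 100 to 505 calls that did not pass (edgeR adjusted p 0.18). The groups overlapped at KO 1. Bax came after Gdf15 and Trp73 in size of difference among autosomal windows, at 13.7%, 11.8% and 12.9% against 7.2%, 12.2% and 4.72%, and did not pass (edgeR adjusted p 0.28). Fas and Phlda3 lay between 7.80% and 13.7% in all 6 P0 samples.

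The genes that changed in expression and had a window were mostly unmethylated at their start in both groups. Methylation was 0.743% to 1.05% in controls and 0.942% to 1.33% in KO for Btg2, and 0.198% to 0.770% against 0% to 1.17% for Apaf1. For Ccng1 it was 0.958% to 2.08% against 0% to 2.58%, for Gadd45a 0.862% to 3.21% against 0.219% to 1.32%, and for Dcxr 2.13% to 2.66% against 0.685% to 1.98%. None of these 5 passed in the edgeR test of methylation, with 0 at an unadjusted p under 0.05 (20.6% of all windows were lower and 1.12% higher at that level). All 5 lay under 5% in controls, where a loss has little room to show. Of 9829 tested windows under 5% in controls, 34 were lower and 12 higher at an edgeR adjusted p under 0.05. The promoter stretches of Ccng1 and Gadd45a printed above lie in windows that were under 5% in every P0 sample. Cdkn1a was alike, at 1.18% to 2.24% against 0.766% to 1.88%.

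Eda2r was the exception among the genes that rose, at 40.3%, 35.6% and 37.0% in controls and 38.7%, 31.0% and 19.7% in KO, on 122 to 509 calls at 7 positions. KO 1 lay within the control range and KO 3, the shallowest RRBS library, far below it, and the difference of -7.81 points did not pass (edgeR adjusted p 0.57). In adults the same window stood at 0.5% to 3.38%. The 441 X-linked windows together averaged 39.8% in controls, 29.7% in KO and 13.3% in adults, and between adults and newborns the sex and age of the animals cannot be told apart. Pmaip1 and Trp53inp1 had no start site in the table, so windows at both ends of each gene were summed, as a description without a test. The left end of Pmaip1 stood at 1.86% to 3.79% in controls and at 0.987% to 3.91% in KO. Its right end, with only 4 positions and 26 to 206 calls, was highly methylated, at 77.8%, 93.2% and 76.1% in controls and 73.8%, 72.8% and 69.2% in KO, with every KO sample below every control. The left end of Trp53inp1 stood at 0.761% to 0.952% against 0.253% to 0.817%, and its right end had 0 positions. The largest difference at a covered gene end was at the left end of Zmat3 (-22.8 points), whose expression did not pass. That end stood at 76.3%, 75.3% and 82.0% in controls and 64.1%, 57.2% and 43.9% in KO, on 41 to 223 calls. The right end of Zmat3 and the covered ends of Tnfrsf10b, Ddb2, Xpc and Rrm2b overlapped between groups. At the left end of Perp, read in the same way, every KO sample (3.15% to 6.05%) lay below every control (6.22% to 16.6%), while Perp expression overlapped between groups. The right end of Perp did not reach the coverage minimum.

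**Figure D5:**
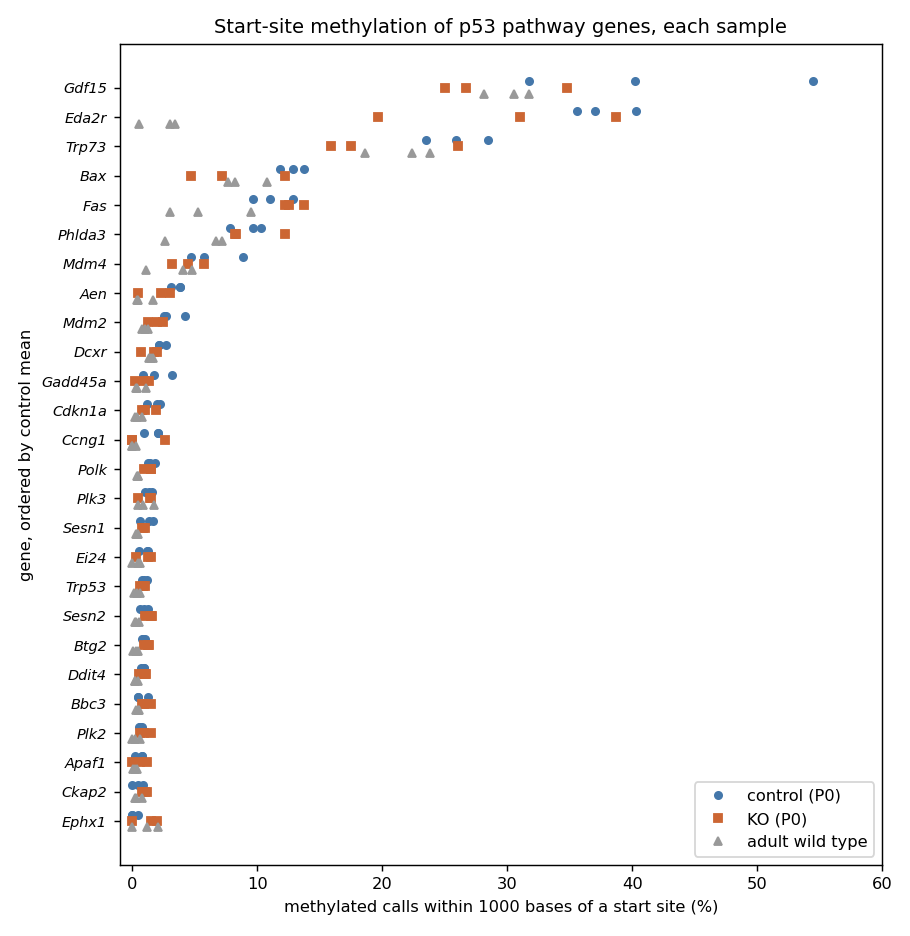
Percent of methylated calls within 1000 bases of a start site in each RRBS sample, for the 26 genes with a start site in order of the control mean. Most genes sit under 5% in all 9 samples, Gdf15, Eda2r and Trp73 lie between 15.9% and 54.5% at P0, and the adult samples of Eda2r fall to 0.5% to 3.38%.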

How the data were processed

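The authors deposited a raw read count per gene for each of 6 RNA samples and, for each of 9 RRBS samples, the count of methylated and unmethylated calls per cytosine. The submitters' processing notes name STAR 2.4.1d, HTSeq 0.6.1, Trim Galore and Bismark, without parameters. Lines that name no gene (22.9% to 35.8% of reads per sample) were left out. Counts of 3 KO and 3 control samples entered the edgeR 4.0.16 quasi-likelihood fit (R 4.3.3) with TMM scaling and the edgeR filter on low counts, and p-values were adjusted by Benjamini-Hochberg at 0.05 over 18132 genes. On simulated counts with the spread fitted here, the RNA fit recovered 48 of 95 genes changed 2-fold and 66 of 92 changed 3-fold. It also called 8 unchanged genes. A gene that did not pass may therefore still differ. CPM values are scaled by TMM and not by length, so levels were not compared between genes. Methylation calls were summed within 1000 bases of start sites and fitted in edgeR with sample effects and a negative binomial dispersion of 0. That is a change from the planned fit, which recovered none of the changed windows when both were tested on simulated data. The fit used recovered 72 of 200 simulated windows lowered by 15 points (36%), and 12.2% of its calls were unchanged windows. A window that did not pass may therefore still differ, and a single call may be false. A window under 5% in controls cannot lose 15 points. The 36% therefore does not describe the 19 start-site windows of the set that lay under 5% in controls. Recovery of smaller losses was not tested. The alternatives tried were DESeq2 1.42.0, limma 3.58.1 voom, other scalings, filters, thresholds and windows, a replicate block and each sample left out. The 34 genes, the surrounding lists and the naming rule (all 34 genes, and of each list at most the 4 genes past the threshold with the smallest p) were chosen with earlier results of these data known.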

Additional observations from a re-analysis of the deposited data

Results flagged for a closer look

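In adults the left end of Pmaip1 (within 1000 bases) had a mean methylation of 5.71%, at 4.44%, 5.85% and 6.85%, above the P0 controls at 3.79%, 1.86% and 2.5%, in samples that enter no test of the report. Adult RNA was not analysed here.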

How the results depend on the processing

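Across the fits that each left out 1 sample, 2 to 11 of the 34 genes were higher and 1 to 3 lower, with a median log2 fold change of 0.071 to 0.247, and over all genes 647 to 2512 were higher and 701 to 2561 lower. The highest counts came without control 3. Voom gave 11 higher among the 34 (median 0.24) and 2442 higher and 2595 lower over all genes. With library size alone the median was 0.19. At least 10 counts in every sample left 1 lower among the 34 (background 8.02%) and 678 higher over all genes. The stricter adjusted p of 0.01 left 2 of the 34 higher and 1 lower, and 528 and 681 genes in all. With the replicate block 3 were higher and 1 lower (background 4.4% and 5.54%, median 0.19). Same-numbered control and KO samples had correlations of deviations of -0.236, -0.0653 and -0.124 in RNA and -0.028 to 0.016 in RRBS. These values gave no sign of pairing by number, but with 3 samples per group they cannot exclude it. The direction turned for Mdm2 (0.011) and Perp (0.024) with library size alone, for Trp73 (0.26), Bbc3 (-0.00065) and Ddit4 (-0.017) with voom, and for Ddb2 (-0.012) with no filter. With 1 sample left out the log2 fold change crossed 0 for Mdm2 (-0.152 to 0.074), Mdm4 (-0.017 to 0.372), Trp73 (-0.503 to 0.369), Plk3 (-0.816 to 0.028), Zmat3 (-0.021 to 0.256), Bbc3 (-0.071 to 0.521), Perp (-0.310 to 0.142), Ddb2 (-0.198 to 0.327), Rrm2b (-0.054 to 0.367), Ddit4 (-0.067 to 0.518) and Ephx1 (-0.307 to 0.00083), none of which passed with all samples. The mean methylation difference of the start sites was -0.493 points within 500 bases, and 3 windows were lower within 2000 bases (background 21.7%). Leaving out 1 sample gave 0 to 2 lower windows (background 9.09% to 13.1%) and differences of -1.77 to -1.05 points. On autosomes alone, chosen after seeing the data, the difference was -1.13 points. The causes were not tested.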

Other observations

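The unfolded protein and integrated stress response, which shares some targets with p53, was represented by 10 genes. Of these, 1 was higher and 1 lower in KO in edgeR (background 6.36% and 8.23%, median log2 fold change -0.09). Chac1, which degrades glutathione and is a target of ATF4, stood at 0.366, 0.356 and 0.680 CPM in controls and at 1.46, 1.44 and 1.52 CPM in KO (log2 fold change 1.64, SE 0.36, edgeR adjusted p 0.018). Herpud1, a component of protein degradation at the endoplasmic reticulum, stood at 137, 98.9 and 63.7 CPM in controls and at 47.7, 53.7 and 59.4 CPM in KO (-0.90, SE 0.25, edgeR adjusted p 0.047). Both calls were lost when any 1 library except control 3 was left out, and that of Herpud1 also when at least 10 reads were required in every sample (edgeR adjusted p 0.054).

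Of 5 other inhibitors of cyclin-dependent kinases, Cdkn2b alone passed, as higher (background 6.36%). It neighbours Cdkn2a on chromosome 4 (89306289 to 89311032) and stood at 1.01, 1.42 and 1.01 CPM in controls and at 5.52, 2.88 and 2.62 CPM in KO (log2 fold change 1.68, SE 0.37, edgeR adjusted p 0.019). Its call was lost without control 1 or KO 1. KO 1 was the highest library, as it also was for Krt20, Sfn and Perp, and the cause was not tested.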
